A study of Mus musculus with 6 samples.

Results

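Mitochondrial solute carriers of the Slc25 family were followed in the gastrocnemius muscle of aged mice given farnesol or vehicle. The members were all genes whose symbol is Slc25a followed by a number, 47 of the 23238 genes listed. No measured value enters that rule, but the family was chosen with earlier results of these data known. All mice were wild-type C57/BL6J, 26 months old, and were treated by mouth for 30 days. The gastrocnemius is a calf muscle in which fast fibres predominate. The farnesol group received 350 mg/kg of this sesquiterpene alcohol, and the vehicle group received saline containing 5% DMSO. The labels do not say whether farnesol was dissolved in the same saline with DMSO. Each group had 3 libraries, made by priming on the poly(A) tail and counting 1 tag per transcript near its 3′ end. The labels call the libraries biological replicates without saying that each came from its own mouse, so p-values measure only the spread between these libraries. Because the muscle was sequenced in bulk, fewer cells of a type and less RNA per cell cannot be told apart.

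Slc25 proteins carry metabolites across the inner mitochondrial membrane, which is otherwise closed to them. Each is built from repeats of paired membrane helices, and most exchange a substrate on one side for a substrate on the other. In muscle the family exports ATP to the myofibrils, brings phosphate to ATP synthase, passes reducing equivalents between cytosol and matrix, and admits acylcarnitines for fat oxidation. Several come as paralogues that share a substrate but differ in tissue.

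No member of the family passed the test over all genes. Transcripts of the carriers that a muscle fibre uses most, for ADP and ATP, phosphate, oxoglutarate, aspartate and glutamate, and acylcarnitines, had folds of 0.977 to 1.10 of their vehicle level as point estimates. A few scarcer members lay further apart: Slc25a17, a cofactor carrier of peroxisomes, at 2.23-fold of vehicle (95% interval 1.21 to 4.10), Slc25a10, the dicarboxylate carrier, at 3.36-fold (1.03 to 11), and Slc25a5, the ubiquitous ADP/ATP carrier, at 0.675-fold (0.471 to 0.966), all with n = 3 and 3. Each of these rested on particular libraries, as given with their values.

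Total counts ran from 9895700 to 12707751 per library, and the family held 0.446% to 0.637% of them. In 1 library, farnesol replicate 1, the ribosomal precursor Rn45s took 4.97% of counts against 9.92% to 15.4% in the others, and deviations from the gene means correlated with transcript length at −0.24 (Spearman, across 11245 genes, which are not independent replicates) against 0.02 to 0.10 elsewhere. Over the 36 tested members the same correlation was 0.03 in that library and −0.18 to 0.28 in the others. The fibre markers fixed for the tissue, among them Acta1, Ckm and Myh4, were detected in every library, but not at the same level. Averaged over these 8 markers, the log2 deviation from the gene means was −0.46 in vehicle replicate 3. In the other libraries it lay between −0.06 and 0.20. The part of this lower fibre level in the fold changes that depend on vehicle replicate 3 was not tested.

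Of the 47 members, 36 had enough counts to be tested. In 31 of these all 6 libraries were past the expression filter, 0.940 CPM (counts scaled by library size to a common total) before any other scaling. All other CPM values also carry TMM factors, which adjust the library sizes for RNA composition. Slc25a10, Slc25a27 and Slc25a47 passed it whole only in the farnesol group, and Slc25a13 and Slc25a40 whole in neither group. The other 11 members, Slc25a2, Slc25a18, Slc25a21, Slc25a30, Slc25a31, Slc25a41, Slc25a43, Slc25a45, Slc25a48, Slc25a53 and Slc25a54, had at most 24 counts in any library. Among them Slc25a30, Slc25a41, Slc25a43 and Slc25a48 had 0 counts in all 6, which allows up to 3 counts or 0.251 to 0.309 CPM per library, for counting error only. Slc25a31, the ADP/ATP carrier of germ cells, had 2 counts in 1 farnesol library and 0 in the others.

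A single transcript dominated the family. Slc25a4 supplied 63.3% to 68.4% of all family counts in each library. For comparison between genes, levels were divided by the length of the longest annotated transcript, although a 3′ tag is designed to be counted once whatever the length. On this scale Slc25a4 stood at 1790 CPM per kb averaged over the 6 libraries (range 1551 to 2020). Slc25a3, the phosphate carrier, followed at 161 CPM per kb (149.0 to 187), Slc25a11, the oxoglutarate carrier, at 107 (101 to 119) and Slc25a12, the muscle aspartate/glutamate carrier, at 62.9 (52.7 to 71.1). The next was Slc25a39, a glutathione carrier, at 30.5 CPM per kb (25 to 33.8). The library ranges of these neighbours in the order did not overlap. Nor did Slc25a39 overlap the NAD+ carrier Slc25a51, which came next at 21.4 CPM per kb (18.4 to 23). From Slc25a51 on neighbours overlapped, with 1 exception at Slc25a38 and Slc25a15. The acylcarnitine carrier Slc25a20 stood at 18.0 (16.6 to 22.1) and Slc25a5 at 15.4 (9.97 to 23.9). The tested member of lowest level per kb was Slc25a32, at 0.299 CPM per kb. This order depends on the division by length. In mean CPM over the 6 libraries, Slc25a12 at 400 was above Slc25a11 at 184. Slc25a51 at 94.8 CPM was likewise above Slc25a39 at 51.5 CPM. The lowest tested member in CPM was Slc25a13 at 1.29, below Slc25a32 at 1.77.

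**Figure D1:**
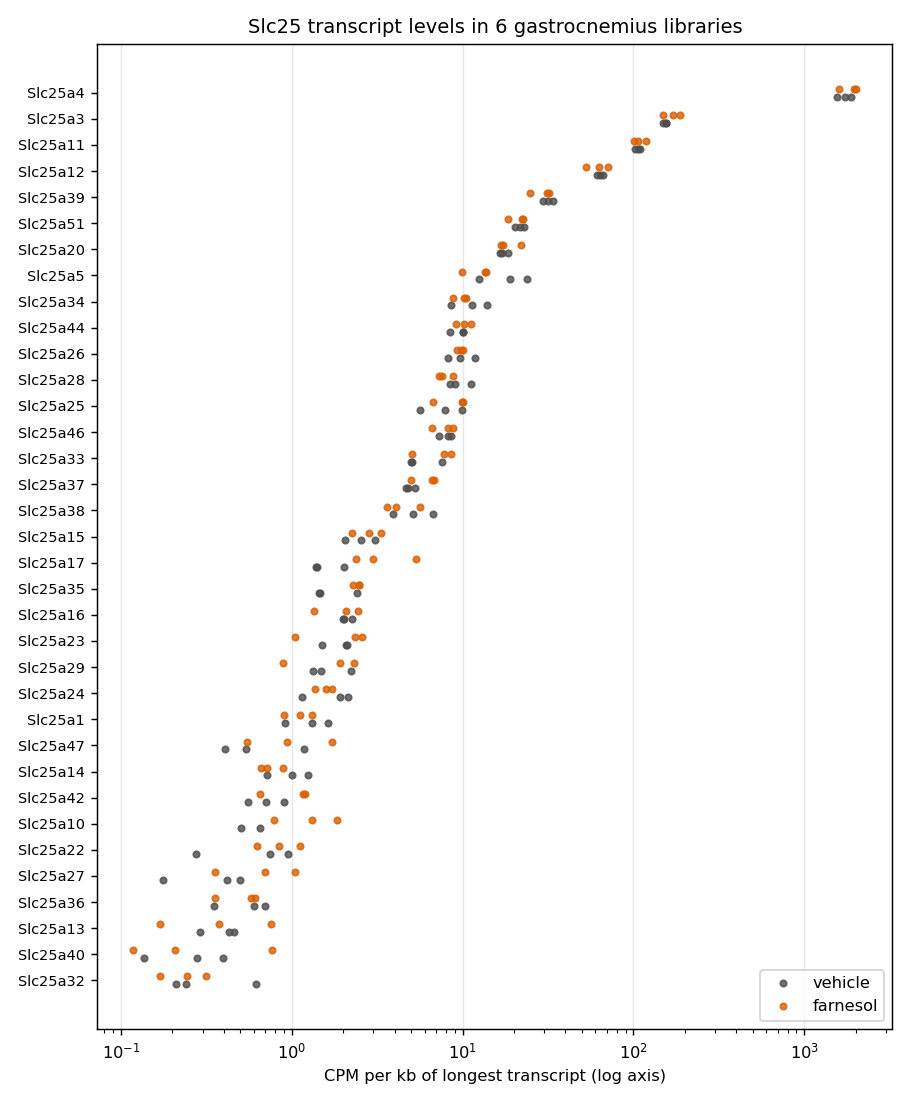
Level of 35 of the 36 tested Slc25 members in the 3 vehicle (grey) and 3 farnesol (orange) libraries, as CPM per kb of the longest transcript on a log axis, 1 point per library, with members ordered by their mean. Slc25a4 stands alone at 1551 to 2020 CPM per kb, and most rows show the colours intermixed; the vehicle library in which Slc25a10 had 0 counts has no point.

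Farnesol was compared with vehicle by edgeR's quasi-likelihood test on all 11674 genes that passed the filter. With Benjamini-Hochberg adjustment 0 members passed a threshold of 0.05, as did 0 of all genes (0%), and the smallest adjusted p of a member was 1.0. At an unadjusted p under 0.05 there were 3 members of 36, against 3.01% of all genes tested: 2 were higher after farnesol, where the background was 1.75%, and 1 was lower, where it was 1.26%. DESeq2 and limma-voom also put 0 members past the threshold, with 3 and 2 members at an unadjusted p under 0.05. The fold change was above 1 for 21 members and under 1 for 15, with a median log2 fold change of 0.08, beside a median of −0.01 over all genes, of which 49.1% were above 1. That median was 0.00 without farnesol replicate 3, 0.00 by limma-voom and 0.02 with the replicate number as a block. Groups did not overlap in 2 members, both higher after farnesol, a share of 5.56% against a background of 8.82% in either direction. Counted by direction, the background was 4.75% higher and 4.07% lower. A fold of at least 1.5 in either direction was reached by 11.1% of members and 10.9% of all genes. The shares without overlap and past 1.5-fold were thus near the background, and the share at an unadjusted p under 0.05, 8.33%, came from 3 genes.

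Precision differed widely between members. In 21 members the 95% interval of the fold lay within 0.5 to 2, and in 10 within 0.6667 to 1.5. The interval's upper bound was 1.52 times its lower bound for the best-measured member and 10.7 times for the widest, so that a change smaller than several-fold was not detectable in the scarcest carriers.

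**Figure D2:**
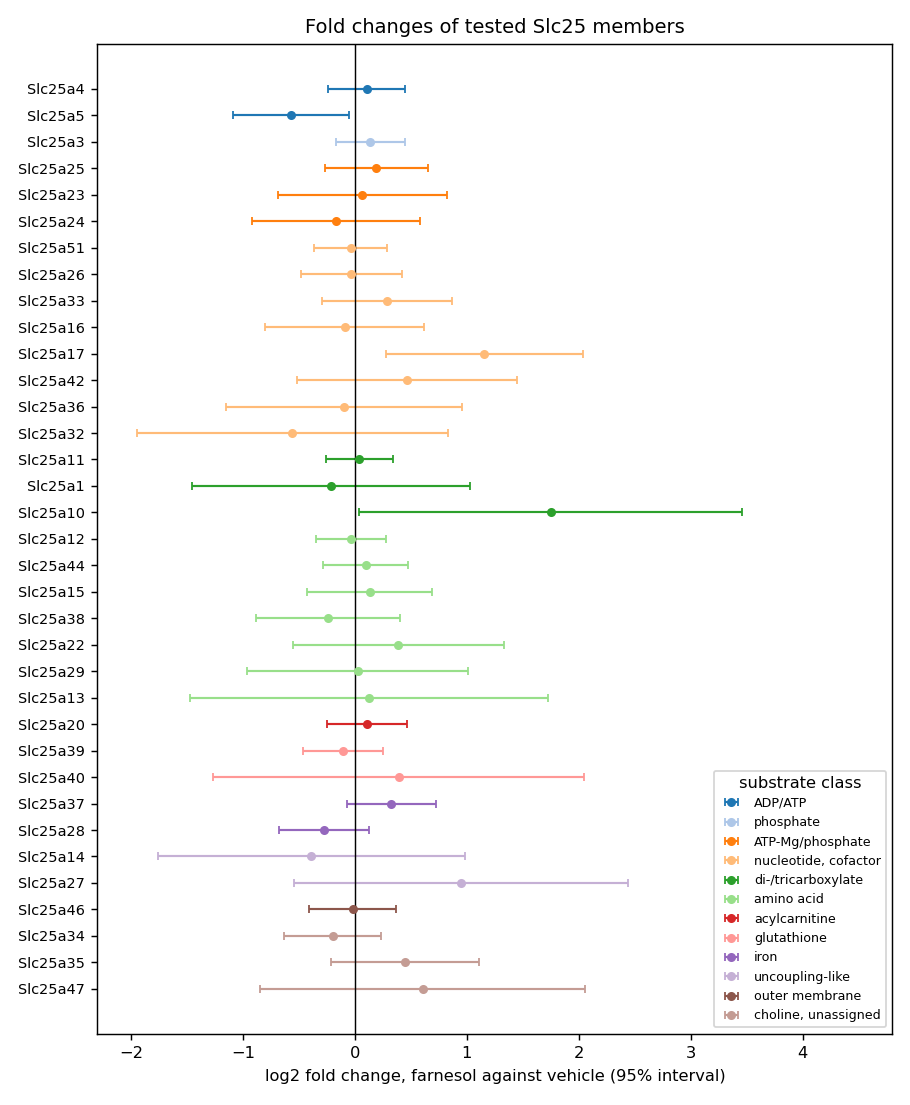
Log2 fold change of farnesol against vehicle for 35 of the 36 tested members, with the 95% interval of edgeR's quasi-likelihood fit, coloured by substrate class (n = 3 and 3). The intervals of Slc25a17 and Slc25a10 lie to the right of 0 and that of Slc25a5 to the left, all 3 without adjustment for the number of genes; the other 32 include 0.

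ADP/ATP carriers exchange matrix ATP for cytosolic ADP. Slc25a4 (chromosome 8, 46207168 to 46211062, mm10) encodes the isoform of heart and skeletal muscle. Its libraries held 2986, 3349 and 3625 CPM in vehicle and 3754, 3075 and 3889 CPM in farnesol. The groups overlapped, with vehicle replicate 1 lowest and farnesol replicate 3 highest. Its log2 fold change was 0.11 (SE 0.17) and its fold 1.08 (0.847 to 1.37).

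Slc25a5 (X, 36795597 to 36798808) encodes the isoform of most proliferating and non-muscle cells. It stood at 15.5, 23.4 and 29.6 CPM in vehicle and at 17.0, 16.9 and 12.4 CPM in farnesol libraries. The farnesol values were close together and vehicle replicate 1 lay among them, so the groups overlapped. The log2 fold change was −0.57 (SE 0.25; unadjusted p = 0.0331, adjusted p = 1.0 in edgeR). It was −0.33 without vehicle replicate 3, and the unadjusted p was then 0.231. Leaving out farnesol replicate 3 gave an unadjusted p of 0.129, and leaving out vehicle replicate 2 gave 0.0648. Vehicle replicate 3, the library with the most Slc25a5, also had the highest summed level of the 10 macrophage markers, 293 CPM, against 214 CPM in vehicle replicate 1, 144 CPM in vehicle replicate 2 and 163 to 203 CPM in farnesol. All 10 markers were lower in farnesol as fitted values. In 2 of them the groups did not overlap, where the background over all genes was 4.07% for lower. At an unadjusted p under 0.05 in edgeR there were 2, where it was 1.26% for genes that were lower. None of the 10 markers was at 0 in every library, and their part in the Slc25a5 value was not tested. Reads of Slc25a5 can also be shared with a processed copy, since the annotation names 1 Slc25a5 pseudogene and how such reads were counted is not given in the sources used here.

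The ratio of Slc25a4 to Slc25a5 counts, which does not depend on library scaling, was 193, 143 and 122 in vehicle and 221, 182 and 315 in farnesol libraries. Farnesol replicate 2 lay below vehicle replicate 1. The mean log2 ratio was 7.23 ± 0.33 (SD, n = 3) in vehicle and 7.86 ± 0.40 in farnesol, a difference of 0.64 (exact two-sided permutation p = 0.2, adjusted p = 0.4 over 4 ratios; the smallest p that 3 against 3 libraries allow is 0.1).

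Slc25a3 (chromosome 10, 91116574 to 91124046) imports phosphate for ATP synthesis and also delivers copper to the matrix. It stood at 604, 627 and 626 CPM in vehicle and at 753, 602 and 686 CPM in farnesol. Farnesol replicates 1 and 3 lay above every vehicle library and farnesol replicate 2 below them all. The log2 fold change was 0.14 (SE 0.15), with a fold of 1.10 (0.889 to 1.36). The gene has a muscle and a ubiquitous splice form with a common 3′ end, which these counts do not separate.

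The ATP-Mg/phosphate carriers adjust the adenine nucleotide content of the matrix and respond to cytosolic calcium. Slc25a25, the member of this class with the highest level per kb, stood at 30.3, 38.0 and 21.5 CPM in vehicle and at 38.1, 38.5 and 25.7 CPM in farnesol, a log2 fold change of 0.19 (SE 0.22). Without vehicle replicate 3 it was 0.00, and without vehicle replicate 2 it was 0.40. In both groups replicate 3 was the lowest library, and the groups overlapped. Slc25a23 stood at 6.38 ± 1.15 and 6.66 ± 2.76 CPM (SD, n = 3) and Slc25a24 at 5.97 ± 1.80 and 5.32 ± 0.612 CPM in vehicle and farnesol. Their ratio was between 0.966 and 1.28 in vehicle libraries and between 0.596 and 1.85 in farnesol libraries (difference in mean log2 ratio 0.09, exact two-sided permutation p = 0.9, adjusted p = 0.9). The spread of this ratio was wider in the farnesol group, SD 0.86 against 0.21 on the log2 scale.

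Slc25a17 (chromosome 15, 81318921 to 81360765) is set apart in the family by sitting in the membrane of peroxisomes, where it carries coenzyme A, FAD and NAD+. It stood at 2.39, 2.43 and 3.47 CPM in vehicle and at 9.24, 5.18 and 4.12 CPM in farnesol libraries. These values came from 25, 24 and 41 counts and from 105, 62 and 40 counts. Every farnesol library was above every vehicle library in CPM, and farnesol replicate 1 was the highest. The log2 fold change was 1.16 (SE 0.42), the smallest unadjusted p of the family, 0.0121, with an adjusted p of 1.0 in edgeR. Without farnesol replicate 1, the library with the lowest Rn45s share, it was 0.75 with an unadjusted p of 0.143, and with any other library left out it lay between 1.06 and 1.38.

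Carriers of nucleotides and cofactors showed fold changes in both directions. Of the 9 members in this class, Slc25a17 included and all tested, 4 were higher and 5 lower as fitted values, with a median log2 fold change of −0.03. Slc25a51, which brings NAD+ into the matrix, stood at 96.0 ± 5.93 CPM in vehicle and 93.5 ± 10.4 CPM in farnesol (SD, n = 3; log2 fold change −0.04, SE 0.16). Slc25a32, a carrier linked to folate and FAD, stood at 2.10 ± 1.34 CPM in vehicle and at 1.43 ± 0.423 CPM in farnesol (−0.56, SE 0.67). Its vehicle mean was raised by vehicle replicate 3, and without that library the log2 fold change was 0.10. The pyrimidine nucleotide carriers Slc25a33 and Slc25a36 had log2 fold changes of 0.29 (SE 0.28) and −0.10 (SE 0.51).

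Carriers of dicarboxylates and tricarboxylates connect the tricarboxylic acid cycle to the cytosol. Slc25a11, which exchanges oxoglutarate for malate in the malate-aspartate shuttle, stood at 183, 186 and 174 CPM in vehicle and at 204, 172 and 182 CPM in farnesol. The ranges overlapped and the log2 fold change was 0.04 (SE 0.15; fold 1.03, 0.834 to 1.27). Slc25a1, which exports citrate as a source of carbon for fatty acid synthesis, stood at 2.20, 1.52 and 2.71 CPM and at 2.20, 1.505 and 1.85 CPM (−0.21, SE 0.60). With at most 32 counts per library, a fold between 0.364 and 2.05 was within its interval, and the log2 fold change was −0.01 without vehicle replicate 3.

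Slc25a10 (chromosome 11, 120491837 to 120501161) exchanges malate or succinate for phosphate and is best known from liver and white fat. Its counts were 0, 13 and 12 in vehicle and 30, 19 and 36 in farnesol libraries, or 0, 1.31 and 1.02 CPM and 2.64, 1.59 and 3.71 CPM. All 3 farnesol libraries were above all 3 vehicle libraries, and vehicle replicate 1 held none. The log2 fold change was 1.75 (SE 0.82; unadjusted p = 0.0454, adjusted p = 1.0 in edgeR). Without vehicle replicate 1 it was 1.17 with an unadjusted p of 0.11, and the unadjusted p was also above 0.05 in the fits that left out farnesol replicate 3 (0.17), farnesol replicate 1 (0.0964) or vehicle replicate 3 (0.0545). Its farnesol libraries were all past the expression filter, as were 2 of its 3 vehicle libraries. An antisense gene model overlaps its exons, and strands were not separated in these counts.

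Adipocyte markers were higher on the same side as Slc25a10. All 14 of the listed markers were higher after farnesol as fitted values, with a summed level of 760, 891 and 1020 CPM in vehicle and of 1142, 1134 and 1060 CPM in farnesol libraries. The largest part of that sum was Lpl, at 393, 562 and 517 CPM in vehicle and at 493, 614 and 555 CPM in farnesol, with overlapping groups. None of the 14 was at 0 in every library. In 7 of them every farnesol library was above every vehicle library, where the background was 4.75%, and 6 had an unadjusted p under 0.05 in edgeR, where it was 1.75% for genes that were higher. Scd1, a fatty acid desaturase of fat cells and other tissues, stood at 50.7, 62.1 and 45.7 CPM in vehicle and at 86.0, 125 and 86.7 CPM in farnesol (log2 fold change 0.91, SE 0.18). Its unadjusted p of 4.8e-05 was the smallest of all genes, with an adjusted p of 0.562. Fasn, the fatty acid synthase, stood at 10.8, 20.01 and 5.50 CPM and at 26.5, 34.0 and 33.8 CPM (1.38, SE 0.35), again with no overlap. The others at an unadjusted p under 0.05 were Lep, Plin1, Retn and Cidec, with log2 fold changes of 1.03, 1.28, 0.87 and 0.88. Adipoq, the fat cell hormone adiponectin, stood at 45.1, 23.1 and 31.8 CPM and at 63.6, 39.6 and 34.3 CPM, with overlapping groups. Of 5 brown fat markers, Ucp1, which defines that tissue, had 0 counts in all 6 libraries. The 4 tested had a median log2 fold change of 0.28, with 3 higher and 1 lower as fitted values. Cox7a1, a respiratory chain subunit also made in muscle, stood at 149, 148 and 148 CPM in vehicle and at 282, 169 and 172 CPM in farnesol (0.48, SE 0.18; unadjusted p = 0.0138, adjusted p = 1.0 in edgeR). Cidea, a lipid droplet protein that is on both lists, was also higher without overlap (1.34, SE 0.68), and Elovl3, a fatty acid elongase, was lower without overlap (−0.59). These markers were named after their values were seen. The part of fat cells in the Slc25a10 value was not tested.

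Amino acid carriers were led by Slc25a12 (chromosome 2, 71274270 to 71367781), the aspartate/glutamate exchanger of muscle, heart and brain, which drives the malate-aspartate shuttle. It stood at 403, 421 and 389 CPM in vehicle and at 451, 335 and 399 CPM in farnesol. Both the highest and the lowest value were farnesol libraries, and the log2 fold change was −0.03 (SE 0.15; fold 0.977, 0.787 to 1.21). Its paralogue Slc25a13, the form of liver, was at 1.23 ± 0.282 and 1.36 ± 0.935 CPM (SD, n = 3), from 6 to 23 counts per library. The ratio of Slc25a12 to Slc25a13 counts was 301, 463 and 270 in vehicle and 855, 286 and 168 in farnesol libraries. Its mean log2 value differed by 0.04 between the groups (exact two-sided permutation p = 0.9, adjusted p = 0.9), with an SD of 1.19 in farnesol, and farnesol replicates 1 and 3 were its highest and lowest libraries.

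The remaining amino acid carriers were closer between the groups than their spread. Slc25a44, a carrier of branched-chain amino acids, stood at 34.2 ± 3.31 and 36.6 ± 3.67 CPM (SD, n = 3; log2 fold change 0.10, SE 0.18), and Slc25a15, the ornithine carrier, at 11.3 ± 2.22 and 12.4 ± 2.40 CPM (0.13, SE 0.27). Slc25a38, which supplies glycine for haem synthesis, stood at 11.97, 9.20 and 7.02 CPM in vehicle and at 7.31, 10.03 and 6.49 CPM in farnesol (−0.24, SE 0.31), with overlapping groups. Of the 7 tested amino acid carriers, 5 were higher and 2 lower as fitted values, with a median log2 fold change of 0.10, and 0 had an unadjusted p under 0.05 in edgeR.

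Slc25a20, the carnitine/acylcarnitine exchanger that admits long-chain fatty acids to the matrix for oxidation, stood at 45.6, 47.0 and 50.5 CPM in vehicle and at 47.2, 46.2 and 60.8 CPM in farnesol. Only farnesol replicate 3 stood outside the range of the vehicle libraries. Its log2 fold change was 0.11 (SE 0.17; fold 1.08, 0.839 to 1.38), and −0.03 without that library.

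The mitoferrins import iron for haem and iron-sulphur clusters. Slc25a37 (chromosome 14, 69241848 to 69285544), the mitoferrin of erythroid cells that is also made elsewhere, stood at 28.4, 31.3 and 27.7 CPM in vehicle and at 40.2, 39.4 and 29.7 CPM in farnesol. Farnesol replicates 1 and 2 lay above the vehicle libraries and farnesol replicate 3 among them (log2 fold change 0.32, SE 0.19). Slc25a28 (chromosome 19, 43663801 to 43675006), the ubiquitous mitoferrin, stood at 41.9, 31.3 and 33.8 CPM and at 32.8, 27.2 and 28.3 CPM (−0.28, SE 0.19), with overlap through farnesol replicate 1. Neither passed in edgeR, at unadjusted p of 0.106 and 0.164 and an adjusted p of 1.0 each.

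The balance of the 2 mitoferrins did not overlap between the groups. The ratio of Slc25a37 to Slc25a28 counts was 0.678, 1 and 0.820 in vehicle and 1.23, 1.45 and 1.05 in farnesol libraries, so that every farnesol library was above every vehicle library. The mean log2 ratio was −0.28 ± 0.28 (SD, n = 3) in vehicle and 0.30 ± 0.23 in farnesol. The difference of 0.58 had an exact two-sided permutation p of 0.1, the smallest this design allows, and an adjusted p of 0.4 over the 4 ratios. It stayed between 0.44 and 0.72 with any 1 library left out.

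Erythroid markers were highest in the same 2 libraries as Slc25a37, farnesol replicates 1 and 2. Of 8 tested, 6 were higher after farnesol as fitted values, with a summed level of 3514, 5706 and 4472 CPM in vehicle and of 9733, 8159 and 5487 CPM in farnesol, nearly all of it from globins. Those at an unadjusted p under 0.05 were 4, all globins, whose near-identical copies can share reads, and in 1, Hbb-bs, the groups did not overlap. Over all genes, 1.75% were higher at that p in edgeR and 4.75% were higher without overlap. None of the tested markers was at 0 in every library. Alas2, the haem-synthesis enzyme of red cell precursors, stood at 22.4, 32.5 and 30.5 CPM and at 36.2, 43.1 and 24.5 CPM. The part of red cell RNA in the mitoferrin ratio was not tested. Antisense gene models overlap exons of Slc25a37 and none overlaps those of Slc25a28.

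**Figure D3:**
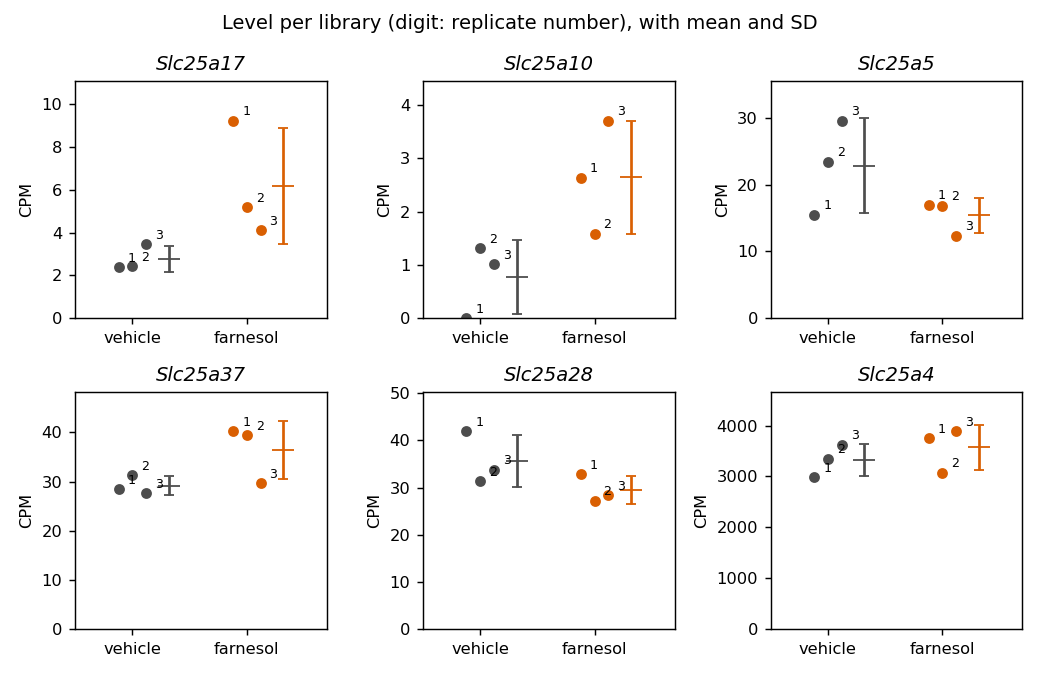
Level in CPM of Slc25a17, Slc25a10, Slc25a5, Slc25a37, Slc25a28 and Slc25a4 in each vehicle (grey) and farnesol (orange) library, labelled by replicate number, with the group mean and SD beside the points (n = 3). Slc25a17 and Slc25a10 show no overlap between groups, the other 4 overlap, and farnesol replicate 1 is the highest point for Slc25a17.

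**Figure D4:**
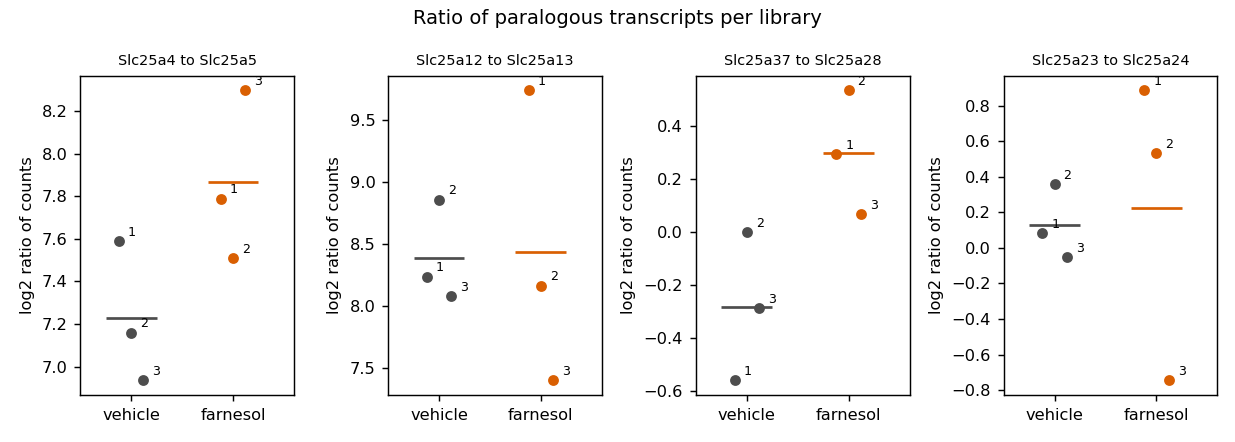
Log2 ratio of counts of 4 paralogue pairs per library, labelled by replicate number, with a line at the group mean. The Slc25a37 to Slc25a28 ratio is at 0 or below in vehicle libraries and above 0 in farnesol libraries, and in the other 3 pairs the groups overlap.

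Glutathione carriers bring the antioxidant tripeptide into the matrix. Slc25a39 stood at 57.0, 49.6 and 53.5 CPM in vehicle and at 52.5, 54.2 and 42.0 CPM in farnesol (log2 fold change −0.11, SE 0.17). Farnesol replicate 3 was the lowest library, and the groups overlapped. Its paralogue Slc25a40 was at 1.21 ± 0.586 and 1.62 ± 1.56 CPM (SD, n = 3), and farnesol replicates 1 and 3 were its lowest and highest libraries. Its log2 fold change was 0.39 (SE 0.80), and −0.74 without farnesol replicate 3.

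Members related to the uncoupling proteins were scarce. Slc25a27, known mainly from brain, stood at 1.44, 1.21 and 0.508 CPM in vehicle and at 2.02, 3.01 and 1.03 CPM in farnesol (log2 fold change 0.95, SE 0.72), and Slc25a14 at 1.84 ± 0.492 and 1.41 ± 0.217 CPM (−0.39, SE 0.66). Their groups overlapped. Slc25a46, which lies in the outer membrane and takes part in mitochondrial shape, stood at 35.0 ± 2.86 and 34.5 ± 5.00 CPM (SD, n = 3; −0.02, SE 0.19). Among carriers with no settled substrate, Slc25a34 stood at 30.2, 22.7 and 37.1 CPM and at 23.5, 27.8 and 27.2 CPM (−0.20, SE 0.21, and −0.02 without vehicle replicate 3). Slc25a35, of the same class, stood at 5.27, 8.79 and 5.33 CPM and at 8.27, 9.03 and 9.07 CPM (0.45, SE 0.32). For Slc25a35 vehicle replicate 2 was the library that overlapped the farnesol values, and without it the log2 fold change was 0.73. The exons of Slc25a35 overlap those of Rangrf on the other strand, and reads of the pair cannot be told apart without strand.

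Summed over all members, the family reached 4720, 5135 and 5349 CPM in vehicle and 5740, 4734 and 5690 CPM in farnesol libraries. Farnesol replicates 1 and 3 were above the vehicle libraries and farnesol replicate 2 was between vehicle replicates 1 and 2. Without Slc25a4 the sums were 1734, 1786 and 1724 CPM and 1986, 1659 and 1801 CPM, with farnesol replicate 2 the lowest of all. The median deviation of the 36 tested members from their own mean log2 CPM was 0.13 in farnesol replicate 1 and between −0.04 and 0.00 in the other 5 libraries. That library was the highest of the 6 for 9 members, as was farnesol replicate 3. For 81 nuclear subunits of the respiratory chain and ATP synthase, taken by symbol, the mean deviation in farnesol replicate 1 was 0.24, against −0.14 to 0.03 in the others. As a mean in place of a median, the deviation of the Slc25 members was 0.09 in that library, against −0.15 to 0.07 in the others.

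The subunits gave 75 of 81 higher (92.6%) and a median log2 fold change of 0.19, where the Slc25 members gave 21 of 36 (58.3%) and 0.08. This difference between the lists was not tested. A shift of the size seen in the subunits was within the interval of the abundant carriers Slc25a4, Slc25a3, Slc25a11 and Slc25a12, whose upper bounds were folds of 1.37, 1.36, 1.27 and 1.21.

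Members of the same superfamily that carry other symbols were listed beside the Slc25 genes. Ucp3, the muscle uncoupling protein that follows fatty acid supply, stood at 104, 149 and 93.3 CPM in vehicle and at 151, 119 and 118 CPM in farnesol (log2 fold change 0.16, SE 0.18), with overlapping groups. Ucp2 stood at 5.31 ± 0.349 and 7.04 ± 2.91 CPM (SD, n = 3; 0.41, SE 0.36), its farnesol mean raised by farnesol replicate 2 at 10.4 CPM, without which the log2 fold change was 0.02. The outer membrane relatives Mtch1 and Mtch2, of which Mtch2 inserts proteins into that membrane, had log2 fold changes of −0.01 (SE 0.17) and −0.11 (SE 0.15).

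Mitochondrial transport genes of other families, 22 tested, were 13 higher and 9 lower as fitted values, with a median log2 fold change of 0.05, and 0 passed over all genes in edgeR. At an unadjusted p under 0.05 there was 1 of the 22, beside 3.01% of all genes: Smdt1, which encodes a small regulatory subunit of the calcium uniporter. It stood at 70.4, 69.4 and 67.7 CPM in vehicle and at 98.0, 78.8 and 85.5 CPM in farnesol, with every farnesol library above every vehicle library (0.34, SE 0.16; unadjusted p = 0.0425, adjusted p = 1.0 in edgeR). Its unadjusted p was above 0.05 in 5 of the 6 fits that left out a library, up to 0.138 without farnesol replicate 1, and 0.079 with total counts in place of TMM scaling. Mpc1, a subunit of the mitochondrial pyruvate carrier, stood at 62.3, 86.7 and 76.9 CPM and at 82.7, 88.8 and 90.8 CPM (0.22, SE 0.16). Sfxn5, a sideroflexin, stood at 3.33 ± 1.01 and 1.5 ± 1.64 CPM (SD, n = 3; −1.15, SE 0.85). Its log2 fold change ran from −2.47 without farnesol replicate 1 to −0.56 without farnesol replicate 2, where it had 0 counts, and was −2.67 by limma-voom.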

How the data were processed

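The authors deposited 1 table of raw counts by gene symbol per library, identified as counts from whole numbers with differing totals; per the submitters' processing notes, Bowtie2, bedtools and mm10 were used. The sources used here do not give versions, annotation, or handling of strand, multi-mapping or copied reads. Per the labels' protocols, libraries were made from 500 ng of total RNA with a Lexogen Quant-Seq kit. Each table had 23282 lines; 35 repeated symbols were summed, none of them a family member, and 0 lines lacked a gene name. Counts of Tsix were 95.9% to 99.0% of those of its antisense partner Xist in each library, so genes on opposite strands were not separated; exons of 12 members overlap another gene on the opposite strand and 2 on the same strand.

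R 4.3.3 with edgeR 4.0.16 was used for the test: filterByExpr with the groups (at least 10 counts at the median depth in 3 libraries), TMM factors (0.905 to 1.14), estimateDisp and glmQLFit with robust = TRUE, glmQLFTest, and Benjamini-Hochberg adjustment over all 11674 genes at 0.05. A standard error is |log2 fold change| divided by √F, with 95% intervals from the t distribution. Deviations are of log2 CPM with a prior count of 2. DESeq2 1.42.0 and limma-voom (limma 3.58.1) were alternatives; each was tested on simulated data. Ratios were compared by exact two-sided permutation over libraries. Replicate pairs differed beyond sampling noise (chi-square per degree of freedom 13.5 to 81.4). Coordinates come from RefSeq genes on GRCm38.p6, the build of mm10, which held all 47 members; lengths are the longest transcript in GENCODE vM21, found for 96.3% of tested genes.

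Members and lists were chosen with earlier results of these data known. Genes named were the paralogue sets and main carriers, up to 6 members per direction of smallest unadjusted p, the 6 of highest level per kb, Ucp1 to Ucp3, Mtch1 and Mtch2, and 3 other transport genes of smallest p; Slc25a14, Slc25a15, Slc25a33, Slc25a36, Slc25a44, Slc25a46 and Slc25a47, and the 81 subunits, were added after their values were seen. Of the fixed marker lists, endothelial, fibroblast, Schwann, satellite cell, smooth muscle and slow fibre markers had median log2 fold changes of −0.03, 0.07, 0.18, −0.10, −0.08 and 0.24; adipocyte, brown fat, erythroid and macrophage markers had 0.66, 0.28, 0.49 and −0.31. Some genes that the rule names are not reported here.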

Additional observations from a re-analysis of the deposited data

How the results depend on the processing

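No setting put an Slc25 member past an adjusted p of 0.05. Over all genes the count was 0, except 13 without the filter and 3 without vehicle replicate 2 (0 to 3 with any 1 library left out). The family's median log2 fold change of 0.08 ran from 0.00 (−0.002016) without farnesol replicate 3 to 0.11 with a library left out, was 0.00 (0.002287) by limma-voom, and was 0.0175 with the replicate block, which left 2 members, Slc25a10 and Slc25a17, at an unadjusted p under 0.05. Same-numbered libraries had correlations of −0.02 to 0.06 between their deviations. With 3 libraries per group, such values cannot decide whether the numbers pair the samples. With fewer members tested, 12 were higher under the filter of a mean of 5 CPM, which kept 23 and gives no value for the scarcer ones, Slc25a10 and Slc25a17 among them, and 12 among members with a mean of at least 50 counts, a choice made after seeing the data.

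The cause of the other changes was not tested. Leaving out 1 library, the log2 ratio of Slc25a12 to Slc25a13 differed between groups by −0.61 (without farnesol replicate 1) to 0.56, with −0.03 without vehicle replicate 1 and −0.11 without vehicle replicate 3. That of Slc25a23 to Slc25a24 ran from −0.24 (without farnesol replicate 1) to 0.58, with −0.06 without farnesol replicate 2. Of 31 named genes with a fold change, 21 kept their direction in every setting run and 10 did not. The 21 were not steady in size: in 18 of them leaving out 1 library moved the log2 fold change by over 1.5 times, to −0.026 for Slc25a38 without vehicle replicate 1 and −0.002016 for Slc25a39 without farnesol replicate 3. With 1 library left out, the log2 fold changes of these 10 ran from −0.0983 to 0.11 for Mtch1 (0.05 without farnesol replicate 1), −0.0313 to 0.0924 for Slc25a11, −0.14 to 0.0727 for Slc25a12, −0.53 to 0.51 for Slc25a13 (−0.0462 without vehicle replicate 2), −0.0323 to 0.18 for Slc25a20, −0.16 to 0.36 for Slc25a23 (−0.0687 without farnesol replicate 2, −0.0755 without vehicle replicate 2), −0.39 to 0.0111 for Slc25a24, −0.82 to 0.10 for Slc25a32, −0.74 to 0.81 for Slc25a40 and −0.0948 to 0.0504 for Slc25a51 (0.00669 without vehicle replicate 2). The signs also reversed with total counts for Slc25a12 (0.00297) and Mtch1 (0.00423), with limma-voom for Slc25a13 (−0.15) and Slc25a40 (−0.0248), and with the replicate block for Slc25a13 (−0.0264) and Slc25a23 (−0.00200). Depth limits the 13 tested members with a mean under 50 counts.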
